A study of Mus musculus with 2 samples.

Results

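The genes described here are the bone morphogenetic protein (BMP) ligands Bmp2, Bmp4 and Bmp7, their receptors Bmpr1a, Bmpr1b and Bmpr2, the signal transducers Smad1 and Smad5, and the target genes Id1 and Id2. They were followed in RNA recovered on anti-FLAG agarose from fetal mouse testis with FLAG-tagged Nanos2. The 10 genes were taken by name, and every non-control probe that carries one of these names was used, which gave 18 probes of the 41174 on the array. All 10 genes entered the test, among 15269 genes in all. Male gonads of the MCH strain at embryonic day 14.5 carried a transgene named by its label as a Nanos2 enhancer, 3xFLAG-Nanos2 and the Nanos2 3′UTR. One group was RNA recovered with the anti-FLAG M2 agarose (FLAG IP) and the other was RNA with no antibody step (input), each measured on 2 one-colour Agilent arrays. Both groups carry the transgene, and a mock precipitate (another antibody, or gonads lacking the transgene) was not analysed here. The series text calls the 2 arrays of a group biological duplicates and does not say whether they came from separate animals. The p-values thus measure the spread between the 2 arrays of a group, pooled over both groups.

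BMPs are secreted growth factors of the TGF-beta family. A BMP dimer binds type I receptors (such as Bmpr1a and Bmpr1b) together with a type II receptor (such as Bmpr2), the type II receptor phosphorylates the type I receptor, and that receptor phosphorylates Smad1 and Smad5. These enter the nucleus with Smad4 and switch on targets, among them the Id genes, which encode helix-loop-helix proteins that cannot bind DNA and hold back other factors of that class. In the mouse embryo, BMP signals from extraembryonic tissue are needed for primordial germ cells to form. Nanos2 is an RNA-binding protein of male germ cells in the fetal testis, where it recruits the CCR4-NOT deadenylase complex to RNA.

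A value below is the log2 of a probe's processed signal over the 75th percentile of its array, called the scaled level. It is a share of the RNA on that array, not an amount. A difference is FLAG IP minus input, with the standard error (SE) of limma, n = 2 arrays per group, and a gene is called at an adjusted p under 0.05 (limma, Benjamini-Hochberg over all genes tested). That percentile was 1026 and 1038 intensity units for the input pair, but 55.7 for FLAG IP replicate 1 and 608 for its partner. The lowest scaled level of any spot well above background was -6.12 and -6.74 for the input pair, -5.97 for FLAG IP replicate 2 and -2.77 for FLAG IP replicate 1, so the measurable range of dim probes is narrower in that last array. Input replicate 1 was on a slide apart from the other 3 arrays, which were coded together as a second slide. Precision is limited by having 4 arrays. The median SD within a group over the genes tested was 0.060 for the input pair and 0.30 for the FLAG IP pair. The fit takes 1 shared spread per gene for both groups, although the FLAG IP pair varied more.

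Of the 10 genes, 2 were called higher in the FLAG IP (Bmp4 and Bmpr1b) and 3 lower (Bmp7, Bmpr2 and Id1), while 5 did not pass. Over all genes tested, 28.0% were called higher, 25.4% lower and 53.4% either way, so shares of 2 in 10 and 3 in 10 lie near the background. The median difference of the 10 genes was -0.38, against 0.07 over all genes tested. The scaled levels of the FLAG IP and input arrays did not overlap for 8 of the 10 genes, beside 80.2% of all genes tested. The FLAG IP lay above the input for 2 of them (42.0% of all genes) and below it for 6 (38.2% of all genes). With median centring or quantile normalization in place of the 75th percentile, the call for Bmpr1b was lost and the split was 1 higher and 3 lower. With no scaling at all, every gene's difference moved by about -2.49, and Bmp4 then read -1.24 and Bmpr1b -0.06. Leaving out either input array left 1 gene called higher (Bmpr1b) and 0 lower, and that fit assumes that the lone input array varies like the FLAG IP pair.

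**Figure D1:**
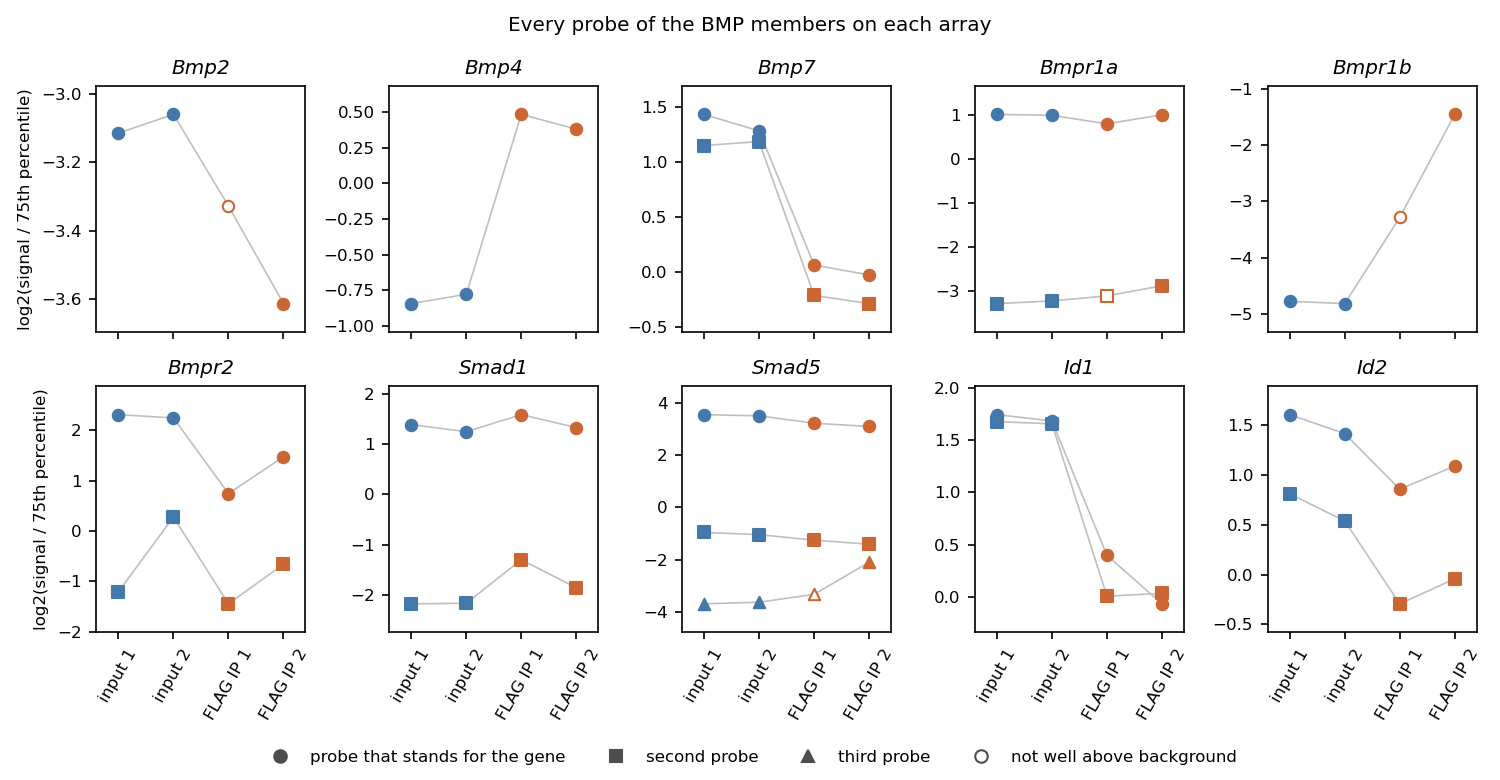
Scaled level (log2 of signal over the array's 75th percentile, vertical axis, with its own range in each panel) of every probe of the 10 genes on the 2 input arrays (blue) and the 2 FLAG IP arrays (orange); circles mark the probe that stands for the gene, squares and triangles its other probes, and open symbols spots not well above background. Bmp4 stands higher on both FLAG IP arrays, both probes of Bmp7 and Id1 stand lower, and the 4 open symbols all lie on FLAG IP replicate 1.

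Among the ligands, Bmp4 rose in the FLAG IP and Bmp7 fell by a similar size. Bmp4, the BMP whose loss leaves mouse embryos without primordial germ cells, had scaled levels of -0.84 and -0.78 on the input arrays and 0.48 and 0.38 on the FLAG IP arrays. Both FLAG IP values lie above both input values, and the gap is far wider than the spread within either group. The difference was 1.24 ± 0.16 (SE; 2.36-fold, limma adjusted p = 0.00664). Bmp7, a ligand best known from kidney and eye development, had scaled levels of 1.43 and 1.28 in the input against 0.06 and -0.03 in the FLAG IP. It fell by 1.34 ± 0.17 on the log2 scale (2.53-fold lower, limma adjusted p = 0.00615). Its second probe fell by 1.42 ± 0.16 (limma adjusted p over all probes = 0.00711), close to the first. Bmp2, a close relative of Bmp4, stood at -3.11 and -3.06 in the input and at -3.33 and -3.61 in the FLAG IP, a difference of -0.38 ± 0.18 that did not pass (limma adjusted p = 0.153).

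The probes of Bmp2 and Bmp4 and one probe of Bmp7 were each printed 10 times on every array, which shows the spread of single spots. For Bmp4 the 10 spots ran from -0.92 to -0.67 over the input pair, from 0.12 to 0.88 for FLAG IP replicate 1 and from 0.26 to 0.46 for FLAG IP replicate 2. No Bmp4 spot of a FLAG IP array was as low as any input spot. The SD among Bmp4 spots was 0.037 and 0.054 for the input pair, 0.23 for FLAG IP replicate 1 and 0.059 for its partner, so the dimmer array was also the less precise one. For Bmp7 the spots lay between 1.08 and 1.23 in the input and between -1.02 and 0.33 in the FLAG IP, again without overlap. For Bmp2 0 of 10 spots were well above background on FLAG IP replicate 1. After 1 marked spot was left out, they ran from -4.34 to -2.87 there. Their median of -3.06 lay inside the input range of -3.22 to -2.97. On FLAG IP replicate 2 all 10 Bmp2 spots were well above background and ran from -3.82 to -3.32, below every input spot.

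**Figure D2:**
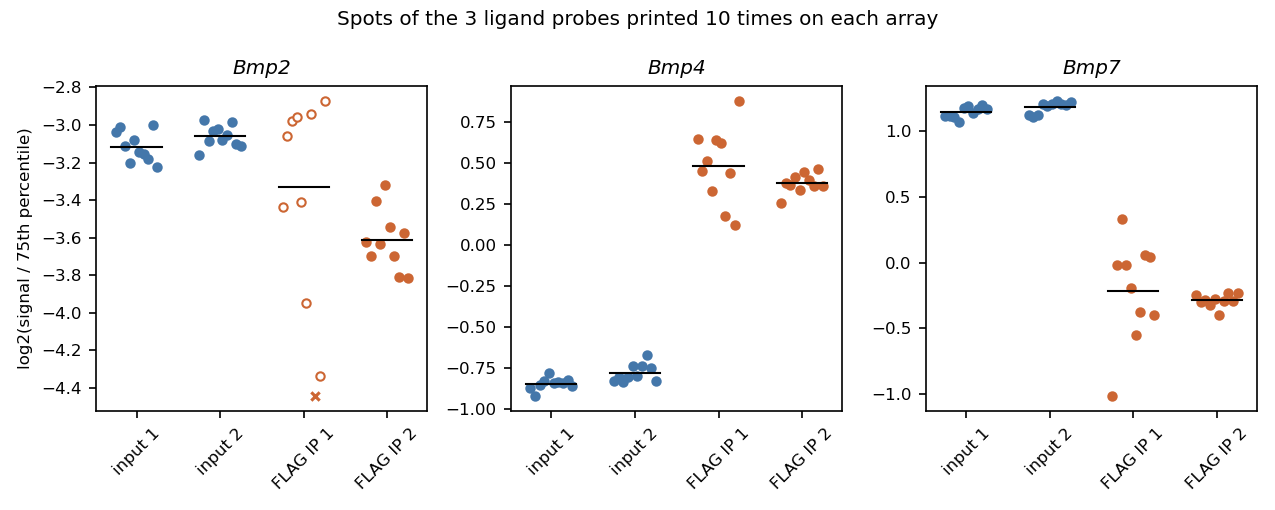
Scaled level (log2 of signal over the array's 75th percentile, vertical axis) of each of the 10 spots per array of the repeated probes of Bmp2, Bmp4 and Bmp7; filled symbols are well above background, open symbols are not, the cross is a spot marked as an outlier, and black lines are means of the unmarked spots. The spots of Bmp4 lie between 0.12 and 0.88 on the FLAG IP arrays and no higher than -0.67 in the input, and the Bmp2 spots of FLAG IP replicate 1 scatter on both sides of the input spots.

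The 3 receptors differed in direction. Bmpr1a, a type I receptor found in many tissues, had scaled levels of 1.02 and 0.997 in the input and of 0.81 and 1.01 in the FLAG IP, so the groups overlap. Its difference was -0.10 ± 0.17 (limma adjusted p = 0.645). A dimmer Bmpr1a probe, not well above background on FLAG IP replicate 1, gave 0.26 ± 0.18 (limma adjusted p over all probes = 0.294), and neither probe passed.

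Bmpr1b, the type I receptor known for its part in cartilage and ovary, showed the largest difference of the 10 genes and also the least even one. Its scaled levels were -4.77 and -4.81 in the input, -3.28 for FLAG IP replicate 1 and -1.46 for FLAG IP replicate 2, with signals of 37.5 and 36.9 units for the input pair and 5.72 and 222 units for the FLAG IP pair. Both FLAG IP values lie above the input, but their SD was 1.29 (n = 2), and the probe was not well above background on FLAG IP replicate 1. The difference was 2.42 ± 0.66 (5.37-fold, limma adjusted p = 0.0405). It was 3.34 without FLAG IP replicate 1 and 1.51 without FLAG IP replicate 2. The 1.51 rests on the level of -3.28, which is under the lowest measurable level of FLAG IP replicate 1 (-2.77). That value is therefore not a second measurement of the rise. With all arrays raised to the highest of their 4 lowest measurable levels (the common floor), an alternative chosen after seeing the data, the Bmpr1b difference was 0.66 (limma adjusted p = 0.493). Both input levels and that of FLAG IP replicate 1 lie below this floor of -2.77. The 0.66 is thus set by FLAG IP replicate 2 alone and is no new estimate of the difference.

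Bmpr2, the type II receptor for BMPs, fell by the brighter of its 2 probes. That probe stood at 2.31 and 2.25 in the input and at 0.74 and 1.48 in the FLAG IP, a drop that was larger on FLAG IP replicate 1. It fell by 1.17 ± 0.30 on the log2 scale (2.25-fold lower, limma adjusted p = 0.0350). The second Bmpr2 probe read -1.21 and 0.28 on the 2 input arrays and -1.45 and -0.66 in the FLAG IP. Its input arrays thus had an SD of 1.05 (n = 2), the groups overlap, and its difference of -0.59 ± 0.62 did not pass (limma adjusted p over all probes = 0.477). With the mean of both probes the Bmpr2 difference was -0.88 (limma adjusted p = 0.137).

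Neither SMAD gene passed. The brightest probe of Smad1, which carries the BMP signal to the nucleus, stood at 1.39 and 1.25 in the input and at 1.59 and 1.33 in the FLAG IP. These values overlap, and the difference was 0.14 ± 0.19 (limma adjusted p = 0.559). The second Smad1 probe stood at -2.17 and -2.16 in the input and at -1.30 and -1.85 in the FLAG IP, a difference of 0.59 ± 0.25 (limma adjusted p over all probes = 0.128). Smad5, the close relative of Smad1 with the same task, was read by 3 probes. The brightest stood at 3.55 and 3.50 in the input and at 3.22 and 3.097 in the FLAG IP, a difference of -0.37 ± 0.16 (limma adjusted p = 0.125). The next probe gave -0.33 ± 0.17. The dimmest gave 0.95 ± 0.47 (limma adjusted p over all probes = 0.171) and was not well above background on FLAG IP replicate 1, and the brightest probe minus the dimmest one changed by -1.32 between input and FLAG IP. Within FLAG IP replicate 2, where all 3 Smad5 probes were well above background, the dimmest stood at -2.10 against -3.70 and -3.63 in the input.

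Both Id genes stood lower in the FLAG IP on every array and every probe, and Id1 passed the test. Id1, an early BMP target, had scaled levels of 1.74 and 1.68 in the input and of 0.40 and -0.07 in the FLAG IP. It fell by 1.55 ± 0.23 on the log2 scale (2.93-fold lower, limma adjusted p = 0.00855), the largest drop of the 10 genes. A second Id1 probe stood at 1.68 and 1.66 in the input against 0.01 and 0.03 in the FLAG IP and fell by 1.65 ± 0.16 (limma adjusted p over all probes = 0.00584). Id2, which encodes a related inhibitor, stood at 1.61 and 1.42 in the input and at 0.86 and 1.09 in the FLAG IP. The groups do not overlap, but the difference of -0.54 ± 0.19 did not pass (limma adjusted p = 0.0746). The second Id2 probe did pass over all probes, with a difference of -0.84 ± 0.21 (limma adjusted p = 0.0356), and with the mean of both probes the gene was called (-0.69, limma adjusted p = 0.0426).

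**Figure D3:**
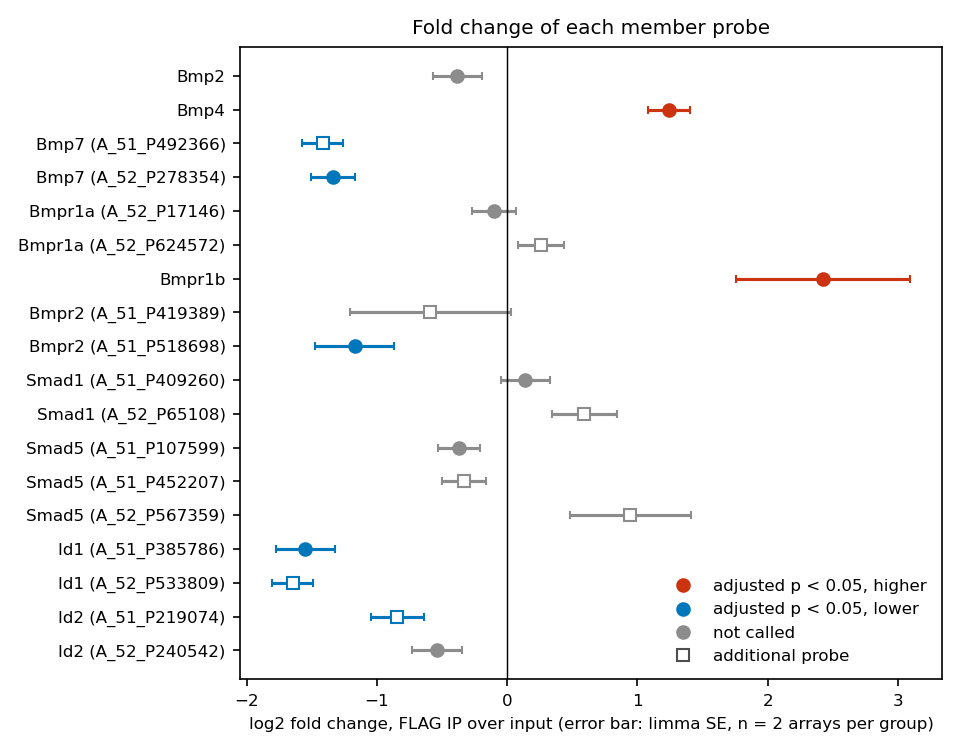
Difference in log2 level between FLAG IP and input for each of the 18 probes (horizontal axis; bars are limma SE, n = 2 arrays per group), red where called higher, blue where called lower and grey where not called over all probes; open squares are additional probes of a gene. The 2 probes of Bmp7 and of Id1 give nearly equal drops, while the 3 probes of Smad5 run from -0.37 to 0.95.

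Probe by probe, 2 of the 18 were called higher, 6 lower and 10 did not pass, beside 24.6% and 23.4% of all probes tested. For the 7 genes with more than 1 probe, the signs were the same across probes for Bmp7, Bmpr2, Smad1, Id1 and Id2 and differed for Bmpr1a and Smad5. With slide as a block, in effect the fit without input replicate 1, the differences were 1.21 for Bmp4, -1.26 for Bmp7, -1.14 for Bmpr2, -1.52 for Id1 and 2.44 for Bmpr1b. Without input replicate 2 they were 1.27, -1.41, -1.20, -1.58 and 2.40. In such fits the spread comes from the FLAG IP pair alone. With slide as a block the SE of Bmp4 rose from 0.16 to 0.51 and that of Bmpr1b from 0.66 to 0.74. The call that Bmpr1b keeps in them thus does not mark it as the steadiest of the 5. Its FLAG IP values had an SD of 1.29, and its probe was not well above background on FLAG IP replicate 1. With normexp background correction the fitted difference was 1.02 for Bmp4 (limma adjusted p = 0.0658), -1.16 for Bmp7 (0.0568) and -1.36 for Bmpr2 (0.0880). These 3 lost their call, while Id1 at -1.59 (0.0370) and Bmpr1b at 2.33 (0.0318) kept theirs.

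The authors' deposited table gives 1 pooled ratio of FLAG IP to input per probe, with its scaling between arrays unstated. In the authors' deposited table Bmp4 has a ratio of 2.19 and Bmpr1b one of 4.94. The authors' deposited table lists 0.350 and 0.364 for the 2 Bmp7 probes and 0.315 and 0.294 for those of Id1, so the directions of these 4 genes are the same as in the scaled levels. Those ratios come from the same arrays and are no independent measurement. Their median over all probes was 0.62 on the log2 scale.

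The other genes of the pathway went in both directions. The list holds 53 of them, and of the 47 tested, 14 rose and 11 fell while 22 missed the threshold. These counts lie near the background of 28.0% higher and 25.4% lower over all genes tested, against which the counts by role below, of 6 to 15 genes each, are to be read. The median difference of the 47 genes was 0.13. Slide as a block leaves a lone input array against the FLAG IP pair, and fewer of these genes kept their call with it (closing section). Bmp5, Acvrl1 and Dand5 entered the test through the input alone, where they are higher, so their falls are partly set by that filter. Of 10 other ligand genes tested, 2 rose and 2 fell. Gdf9, an oocyte growth factor gene, rose by 1.70 ± 0.21 (input scaled levels of -2.38 and -2.41, FLAG IP scaled levels of -0.50 and -0.88). Bmp8b, whose product acts with Bmp4 in the founding of the germ line, rose by 1.09 ± 0.18, was not well above background on FLAG IP replicate 1, and may share signal with its close paralogue Bmp8a (0.07 ± 0.18, not passed). All 4 Bmp8b levels lie below the common floor of -2.77, so that alternative could only give 0.00. The call of Bmp8b was lost with normexp (limma adjusted p = 0.130). Bmp6 fell by 1.23 ± 0.25, and with normexp its fitted difference was -0.49, which did not pass (limma adjusted p = 0.483). Bmp5 fell by 1.60 ± 0.22, and the Bmp5 probe was not well above background on FLAG IP replicate 1. After normexp background correction the fitted difference of Bmp5 was 0.64 (limma adjusted p = 0.555). All 4 Bmp5 levels lie below the common floor of -2.77, so that alternative could only give 0.00.

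Of 6 other receptor and co-receptor genes tested, 3 rose and 1 fell. Acvr2a, a type II receptor shared by activins and BMPs, had scaled levels of -2.73 and -2.89 in the input and of -0.79 and -0.29 in the FLAG IP, a rise of 2.27 ± 0.24 (4.84-fold). With the mean of its probes the difference of Acvr2a was 0.84 (limma adjusted p = 0.0299). Its relative Acvr2b rose by 1.31 ± 0.18 and Rgmb, a co-receptor, by 1.17 ± 0.16. These lie opposite to the type II receptor Bmpr2. Acvrl1, the type I receptor of blood vessels, was called lower at -1.78 ± 0.32, but was not well above background on FLAG IP replicate 1. With normexp its fitted difference was -0.72, which did not pass (limma adjusted p = 0.392). Acvr1 stood at -0.67 ± 0.27 without passing.

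Of 7 other genes for SMADs and their regulators tested, 2 rose and 1 fell. Skil, a repressor of SMAD-driven transcription, rose by 1.51 ± 0.28 and Smurf1, a ubiquitin ligase that acts on Smad1 and Smad5, by 1.09 ± 0.17. With normexp the fitted differences of Skil (0.98) and Smurf1 (1.04) did not pass (limma adjusted p = 0.0771 and 0.0714). Smad6, which blocks the BMP branch and is itself a BMP target, fell by 0.75 ± 0.21. Smad4, the partner of Smad1 and Smad5, stood at 0.53 ± 0.26 and did not pass.

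Of 15 genes for extracellular antagonists and proteases tested, 6 fell and 2 rose, with a median of -0.55. One of the 6, Dand5 (-0.62 ± 0.17), was not well above background on FLAG IP replicate 1. Nbl1, which encodes a BMP-binding inhibitor, fell by 2.14 ± 0.18. Fstl1 fell by 1.49 ± 0.18. Sostdc1, another BMP inhibitor gene, fell by 1.44 ± 0.32. Bmp1 is in this group because it encodes a protease that cleaves the antagonist chordin and is no BMP ligand. It fell by 2.17 ± 0.28, and with the mean of its probes the difference was -0.97, which did not pass (limma adjusted p = 0.135). Chrdl1, a chordin-like antagonist gene, rose from -3.63 and -3.74 in the input to -0.53 and -0.20 in the FLAG IP, a difference of 3.32 ± 0.20. Cer1, an inhibitor of Nodal and BMP, rose by 1.42 ± 0.17 and was not well above background on FLAG IP replicate 1. All 4 Cer1 levels lie below the common floor of -2.77, so that alternative could only give 0.00. The call of Cer1 was lost with normexp (limma adjusted p = 0.134). The chordin gene Chrd stood at 0.05 ± 0.51 and Nog, the noggin gene, at -1.26 ± 0.43, and neither passed.

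Of 9 other target genes tested, 5 rose and 1 fell. The homeobox gene Msx2 had scaled levels of -2.004 and -1.85 in the input and of 1.80 and 1.04 in the FLAG IP, a rise of 3.35 ± 0.31 (10.2-fold). Gata3 rose by 2.44 ± 0.30 and Hey1, a Notch and BMP target gene, by 1.69 ± 0.19. Hey1 did not pass with normexp (limma adjusted p = 0.122). The Id family was split. Id3 fell by 1.85 ± 0.22 (limma adjusted p = 0.00583), on the same side as Id1, while Id4 stood at 1.38 and 1.37 in the input and at 2.27 and 2.24 in the FLAG IP and rose by 0.88 ± 0.15 (limma adjusted p = 0.0133).

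**Figure D4:**
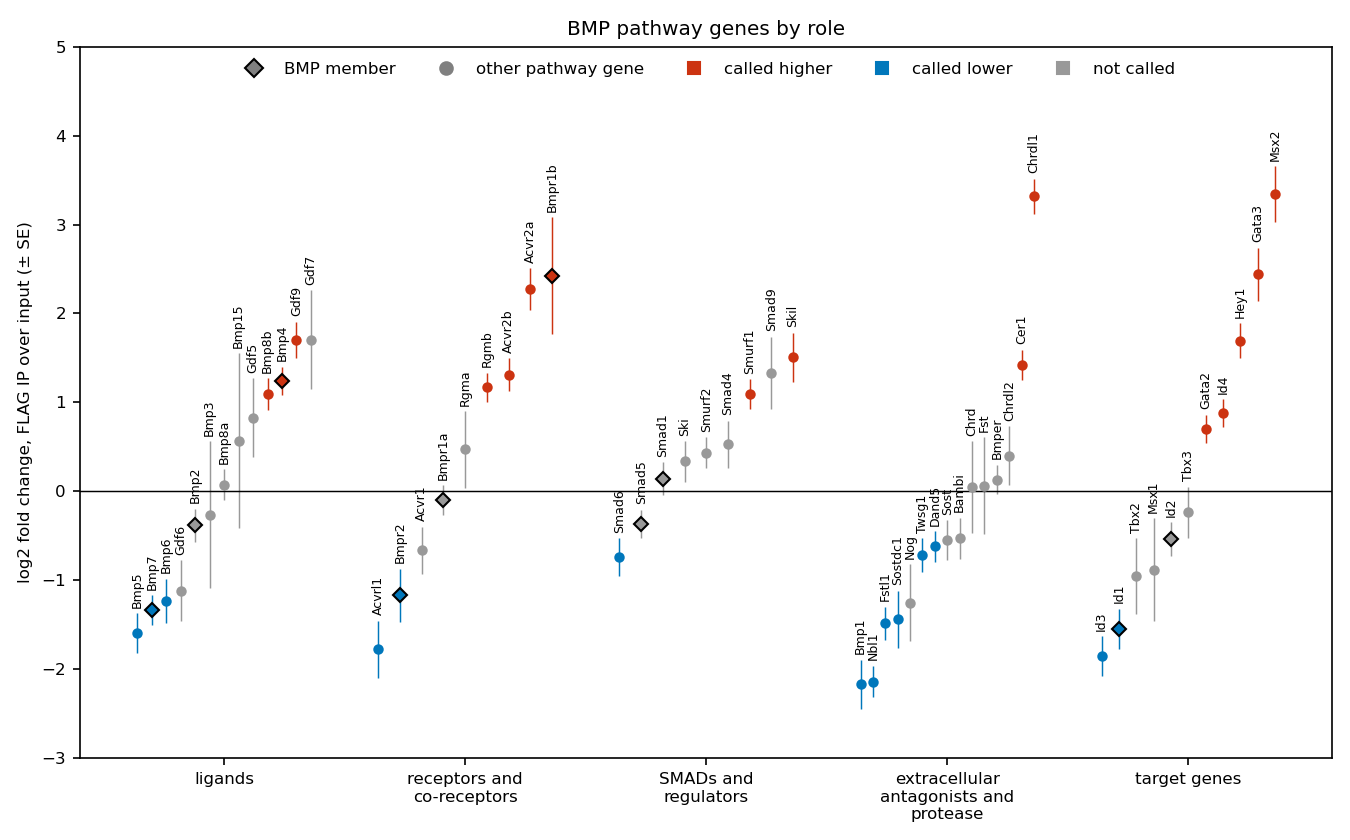
Difference in log2 level between FLAG IP and input (vertical axis; bars are limma SE, n = 2 arrays per group) for the 10 genes (diamonds) and the 47 other pathway genes tested (circles), arranged by role and ordered by value within a role; red is called higher, blue called lower, grey not called. Each role holds genes on both sides of 0, from Bmp1 at -2.17 to Msx2 at 3.35.

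The pattern of Bmpr1b over the 4 arrays was nearest to that of Snx16, Trpc1 and Ranbp3l, with Euclidean distances of 0.17, 0.31 and 0.41 after each gene's mean was subtracted, and 6 genes lay within 0.5. The pattern of Id1 was nearest to those of Fcer1g, Glrx and Psmb6, with distances of 0.043, 0.045 and 0.045, and 1132 genes lay within 0.5. With 4 arrays these distances are a description.

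Markers of the cells of the gonad moved between the groups too. Of 8 germ cell markers 4 rose and 0 fell in limma, beside 28.0% higher and 25.4% lower over all genes tested. The scaled signals of a cell type's markers were also added up on the linear scale, before the log2 step. The sums given here are the log2 of that total, so the brightest markers weigh most. For germ cells the sums were 6.21 to 6.29 in the input and 7.25 to 7.45 in the FLAG IP. Among 8 markers of Sertoli cells, 7 fell while 1 rose (Dmrt1, by 2.15 ± 0.17), and the sums were 5.47 to 5.49 against 3.48 to 3.52. All 6 Leydig cell markers fell (sums of 6.997 to 7.13 against 4.29 to 4.36), as did all 6 of interstitial mesenchyme (7.34 to 7.39 against 4.61 to 5.09). For endothelium, macrophages and red blood cells, 3 of 6, 3 of 4 and 3 of 3 were called lower. Of these, Tie1, Adgre1, Cx3cr1, Hba-x and Hbb-bh1 were not well above background on one FLAG IP array and entered the test through the input alone, so these counts are partly set by the filter. The defining markers of the testis were thus measured in the input, Amh and Insl3 among them. How the shares of germ cell and somatic RNA bear on the BMP genes was not tested. A lower value in the FLAG IP is a smaller share of the RNA recovered. For levels in the bulk input, fewer cells of a type and less RNA per cell cannot be told apart.

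**Figure D5:**
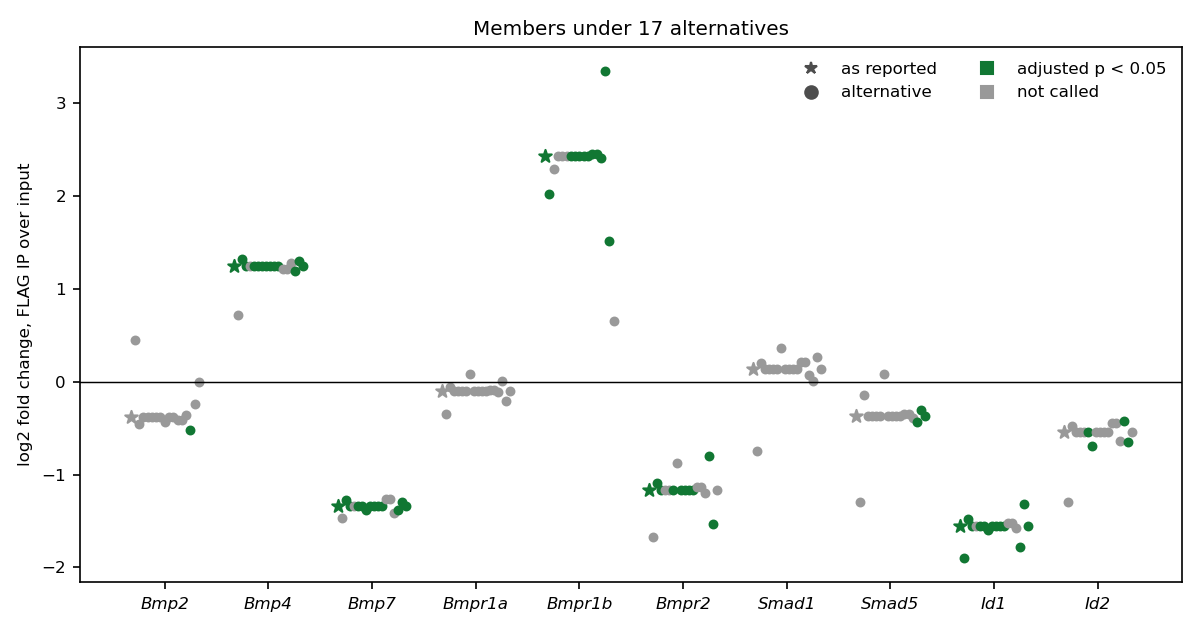
Difference in log2 level between FLAG IP and input (vertical axis) for each of the 10 genes. Stars are values as reported and circles are up to 17 processing alternatives, green where the adjusted p is under 0.05 and grey where not. Values under another scaling or background correction have the change of the all-gene median from the reported setting subtracted. Their colours come from the fit before that subtraction. Bmp4, Bmp7, Bmpr1b, Bmpr2 and Id1 stay on one side of 0, with Bmpr1b between 0.66 and 3.34. The 0.66 is from the common floor, which lies above all Bmpr1b levels but that of FLAG IP replicate 2.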

How the data were processed

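The submitters' processing notes name Agilent Feature Extraction 9.5 for the 2 input and 2 FLAG IP arrays. Cy3-labelled RNA was made from 0.20 µg, per the labels' protocols. Per the file headers, the deposited processed signal is a background-corrected intensity on a linear scale, beside other columns of marks (0 or 1) for spots well above background, outliers and saturation. The authors deposited a series table with a ratio of FLAG IP to input and a raw intensity, which is the mean of the 2 arrays of a group within 1% for 99.9% (input) and 99.8% (FLAG IP) of probes. Its p-values were not used, and 0 per-sample columns were left out.

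Each processed signal was divided by its array's 75th percentile of non-control spots and log2-transformed. Outlier spots were set to missing, and spots of a probe were averaged. A probe was tested where 1 group or both had it well above background on each array, and the probe with the highest mean stood for its gene. Probes were named by gene ID in the RefSeq table of GRCm38.p6 (31004), by an older symbol (309) or by the file (1263), and 8598 had no name. Array headers and that table refer to different builds, so no coordinates are given. The comparison used lmFit and eBayes of limma 3.58.1 in R 4.3.3 (two-sided, no block; 2 residual and 2.08 prior degrees of freedom). The fit was tested on simulated data. Normexp used the median signal and its background, since the files hold no mean signal, with an offset of 50. The other alternatives are named in the closing section.

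The 10 genes, the lists and the rule for named genes were chosen with earlier results of these data known. That rule names all 10 genes, other pathway genes called with a 2-fold change or more, further pathway genes as examples, and the 3 genes nearest in pattern to the called genes with the highest and the lowest difference. Id4, Smad6, Dand5 and the cell type markers named fall outside it or come from the lists, and were named after their values were seen. Some listed genes were not analysed here, and 1 is not reported here.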

Additional observations from a re-analysis of the deposited data

How the results depend on the processing

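Of 16 alternatives planned and 1 added, several moved the counts of calls. Once the change of the all-gene median given next was subtracted, no called gene of the 10 turned to the other side of 0. Slide as a block and leaving out input replicate 1 are in effect the same fit. With 1 array of a group left out, the spread comes from the other group alone. The input pair varied less (median SD of 0.060 against 0.30), so counts of calls rose without a FLAG IP array and fell without an input array. The ranges of such counts below are thus no measure of how many genes differ. Median centring and no scaling moved every gene alike, by -0.13 and -2.49. Quantile normalization moved the median over all genes by -0.067 and normexp background correction by 0.31, with single genes moving unequally. Normexp added an offset of 50, near the 75th percentile of FLAG IP replicate 1 (55.7). As fitted with normexp, Bmp4 went from 1.24 to 1.02 and Bmp2 from -0.38 to 0.76. Values for these settings are given with the change of the median subtracted, which does not undo unequal changes. Before that, Bmp4 read -1.24 and Bmpr1b -0.06 with no scaling. Genes called higher and lower numbered 4275 and 3883 as reported, 1270 and 1397 with normexp, 0 and 0 with no scaling (limma; 0 and 4047 at an unadjusted p under 0.05) and 1433 and 1549 with slide as a block. Leaving out 1 array gave 1433 to 6846 higher and 1549 to 6213 lower. Of the 10 BMP genes, 1 was called higher and 1 lower with normexp, 0 and 0 with no scaling, and 1 and 0 with slide as a block (limma; 0 and 3, and 2 and 2, at an unadjusted p under 0.05). The count called higher was 1 with quantile normalization, with median centring, with no filter on dim probes, with probes restricted to those above background everywhere, and with the common floor chosen after seeing the data. Leaving out 1 array gave 1 to 2 called higher and 0 to 6 lower. Of the other pathway genes, 6 were called higher and 5 lower with normexp, 0 and 0 with no scaling (limma; 0 and 12 unadjusted), and 6 and 3 with slide as a block. Lower calls numbered 6 with no filter and 6 with the common floor. Leaving out 1 array gave 6 to 21 higher and 3 to 18 lower. The median of the other pathway genes was 0.40 with normexp, 0.034 with quantile normalization, 0.24 with no filter, 0.47 with the restricted probes, 0.23 when probes were kept separate, 0.00 with the common floor, and 0.11 to 0.25 without single arrays. The median of the 10 genes was -1.02 with normexp, -0.15 with the mean of the probes of a gene and -0.23 with the common floor.

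Uncalled values changed sign in a few cases, and the cause was not tested. They were Bmp2 (0.45) and Smad1 (-0.75) with normexp, Bmpr1a (0.079) and Smad5 (0.082) with the mean of a gene's probes, Bmpr1a (0.0014 without FLAG IP replicate 1, from -0.20 to 0.0014 over single arrays left out), and the second Bmpr2 probe (0.15 without input replicate 2, from -1.33 to 0.15). The called Bmp5 turned to 0.33 with normexp after the change of the median was subtracted (0.64 as fitted). Replicate numbers are shared between the groups, but the replicate differences of the input and the FLAG IP correlated at only 0.05 across 15265 genes, so they were taken as names. The replicate block gave 4130 genes higher and 3875 lower, changed no call among the 10 genes and ended that of the second Id2 probe (limma adjusted p = 0.0760). Signal over background limits Bmp2, Bmpr1b, the second Bmpr1a probe and the dimmest Smad5 probe, none of them well above background on FLAG IP replicate 1.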
